A study of Homo sapiens with 60 samples.

Results

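The genes described here make the cell's ribosomes. They are 40 listed genes for ribosome biogenesis and nucleolar proteins, listed by name, and all 40 of the 40 symbols were matched to a single gene each among the 60675 genes of the deposited table. Their transcripts were counted by RNA-seq in HepG2, an established line from a human liver cancer, 24 h after treatment began, with 3 libraries in each of 20 groups. The groups were a DMSO vehicle (0.1% by the sample labels and 2% by the design text, a conflict not settled here), wortmannin at 10 µM, and water extracts of 6 herbs, each at 3 doses called high, medium and low. The doses were 500, 100 and 20 µg/mL for Aucklandiae Radix, Zizyphi Semen, Longan Arillus, Schisandrae Fructus and Liriopis seu Ophiopogonis Tuber, and 450, 90 and 18 µg/mL for Polygalae Radix. The cells of all groups were the same unmodified line, and the labels do not say whether the 3 libraries of a group came from separate cultures, so the p-values speak only of the spread among these libraries, which may be technical.

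Ribosomes are built in the nucleolus. RNA polymerase I copies the ribosomal DNA into a long precursor, small nucleolar ribonucleoprotein particles (snoRNPs) guide the chemical modification of that precursor, the small subunit processome folds and cuts its first part, and separate assembly factors carry the small and the large subunit to the cytoplasm. In growing cells the genes for these factors are transcribed together, and insulin, PI3-kinase, mTOR and the transcription factor MYC are known to raise them. Wortmannin is a fungal compound that blocks PI3-kinases irreversibly and at micromolar doses also reaches related kinases, among them mTOR. Hepatoma cells such as HepG2 divide continuously and need a steady supply of ribosomes.

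The 40 genes were ordered by role: 4 for RNA polymerase I transcription, 7 for snoRNP proteins and their assembly, 9 of the small subunit processome, 6 for late maturation of the small subunit, 9 for assembly of the large subunit and 5 nucleolar proteins with several functions. All 40 had enough counts for a test. Levels are CPM, counts scaled to a common library total with TMM factors, so each is a share of a library's reads. Vehicle means ran from 12.9 CPM for GAR1 to 1948 CPM for NCL. Per kilobase of the longest annotated transcript they ran from 5.84 for UTP15 to 648 for NPM1, with a median of 25.6. This allows only a rough comparison between genes, since which transcripts the cells made was not examined. The replicate spread was small: the median coefficient of variation over the 800 pairs of a gene and a group was 4.44%, and the widest was 18.5%, for NPM1 with the medium dose of Aucklandiae.

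The stretches just before the transcription start were searched for short sequence elements. RefSeq (GRCh38.p14) promoters were matched for 35 of the 40 genes. The 250 bases before the start were searched on both strands for exact copies of 4 elements. These were the E-box CACGTG bound by MYC and related factors, the NRF1 element (the run in capitals in the NOB1 window), the ETS-type element CCGGAAG and the TATA box TATAAA. The members without an entry were NOP58, NOLC1, RRP12, BOP1 and RRP1B. For 28 of the 35, bases 11 to 40 after the start lay in a GENCODE 29 transcript of the gene. The following 6 windows of 120 bases end at the base before the start and are shown because they hold, near the start, an E-box, an NRF1 or an ETS element or, in WDR43, none of the 4. They were taken from those with at most 30 bases inside an exon of GENCODE 29, and capitals mark the element.
UTP20, E-box, chr12:101279985-101280104, plus strand: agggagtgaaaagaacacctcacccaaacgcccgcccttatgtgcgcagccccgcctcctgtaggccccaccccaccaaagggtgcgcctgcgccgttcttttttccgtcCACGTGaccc
NAT10, E-box, chr11:34105509-34105628, plus strand: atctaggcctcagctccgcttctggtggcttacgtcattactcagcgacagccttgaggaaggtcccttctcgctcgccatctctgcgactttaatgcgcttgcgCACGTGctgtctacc
NOB1, NRF1 element, chr16:69754927-69755046, minus strand: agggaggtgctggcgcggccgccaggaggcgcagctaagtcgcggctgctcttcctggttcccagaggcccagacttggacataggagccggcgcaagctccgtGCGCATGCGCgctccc
LTV1, ETS element, chr6:143843218-143843337, plus strand: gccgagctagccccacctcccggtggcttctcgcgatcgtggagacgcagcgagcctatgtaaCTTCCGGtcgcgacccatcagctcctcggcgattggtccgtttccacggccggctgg
GAR1, ETS element, chr4:109815390-109815509, plus strand: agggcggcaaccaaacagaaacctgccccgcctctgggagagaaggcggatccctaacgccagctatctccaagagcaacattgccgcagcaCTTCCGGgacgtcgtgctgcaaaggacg
WDR43, none of the 4, chr2:28894547-28894666, plus strand: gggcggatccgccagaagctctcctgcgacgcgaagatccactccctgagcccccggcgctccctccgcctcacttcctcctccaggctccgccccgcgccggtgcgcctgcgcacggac

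The ETS element stood in 11 of the 35 member promoters (31.4%) and in 16.0% of the 10413 promoters of tested coding genes. The NRF1 element stood in 3 (8.57%, against 1.94%), namely DKC1, MYBBP1A and NOB1, and in NOB1 it occurred at 2 places. The E-box stood in 3 (8.57%, against 8.84%), UTP4, UTP20 and NAT10, in each case within the last 16 bases before the start. The TATA box stood in 2 (5.71%, against 5.51%). A match is only a run of letters in this window, and these shares are descriptions with no test.

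Total counts per library ran from 20.21 M to 36.41 M, and 16517 genes entered the tests. The sample codes in the labels fall into 5 sets: the vehicle alone, wortmannin alone, and 3 sets of 2 extracts, which pair Schisandrae with Liriopis, Zizyphi with Longan and Aucklandiae with Polygalae. The labels do not explain the sets, so in every comparison with the vehicle or with wortmannin the treatment and the set cannot be told apart. Vehicle replicate 1 stood apart from the other vehicle libraries. Its GC slope, which measures how a gene's deviation from its mean log2 level depends on its GC content, was -1.28, against 0.06 and 0.08 in replicates 2 and 3, and counts of calls against the vehicle are given also without it. All 10 hepatocyte markers were present in all 60 libraries. Of 10 markers of other cell types, PTPRC and KRT5 were at 0 in all 60, DCN in 59, COL1A2 in 58 and LUM in 52. COL1A1, PECAM1, VWF and CD14 were low but above 0 in all 60, at up to 3.582, 4.736, 1.32 and 2.995 CPM. LYZ stood at 870 to 1647 CPM. Library pairs of the same group differed by more than sampling noise (chi-square per degree of freedom 2.66 to 87.2), so none was counted as a duplicate.

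The first comparison asked what the positive control did to these genes. With wortmannin, 38 of the 40 genes were lower than in the vehicle and 0 were higher (edgeR quasi-likelihood test, Benjamini-Hochberg adjusted p below 0.05), where 16.2% of all tested genes were called lower, 16.4% higher and 32.6% in either direction. The median log2 fold change of the 40 was -0.44, a median fall in mean CPM of 26.2%, while the median of all tested genes was 0.01. Without vehicle replicate 1, 37 genes were lower (all but RRN3 of the 38), with a median of -0.47. GC slopes were 0.35, 0.56 and 0.38 in the wortmannin libraries, and with the GC slope as a covariate 37 genes were lower here and 39 against the extracts. Mitochondrial mRNA made up 10.46% to 11.3% of counts with wortmannin and 13.01% to 16.14% in the vehicle, and its part in the result was not tested. The largest fall was that of DDX21 (-0.73 on the log2 scale) and 15 genes lay below -0.5. The 2 not called were POLR1A and NHP2. Summed over the 40 genes, the vehicle libraries held 7445, 7311 and 7111 CPM and the wortmannin libraries 5280, 5374 and 5156 CPM. The groups did not overlap, and the wortmannin mean was 27.7% below the vehicle mean. In bulk RNA, fewer cells of a kind and less of a transcript per cell cannot be told apart, and CPM does not show a change in total RNA per cell.

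Wortmannin was then compared with the extracts, which uses no vehicle library. Against the mean of the 18 extract groups, 38 genes were again lower and 0 higher, where 20.1% of all tested genes were lower, 21.0% higher and 41.1% called either way. The median was -0.42 and the range -0.61 to -0.13. The 54 extract libraries held 6348 to 7645 CPM of the 40 genes in sum, with a median of 6812 CPM, so that each wortmannin library lay below each extract library, and the wortmannin mean was 22.8% below the extract mean. Wortmannin had the lowest of the 20 group means for all 40 genes, which held for 20.4% of all tested genes. For 34 genes each wortmannin library lay below all 54 extract libraries (6.14% of all tested genes) and the 3 were the lowest of all 60 (5.89%). For 24 genes the gap from the wortmannin mean to the lowest extract mean was wider than the whole range of the 18 extract means on the log2 scale (2.65% of all tested genes).

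**Figure D1:**
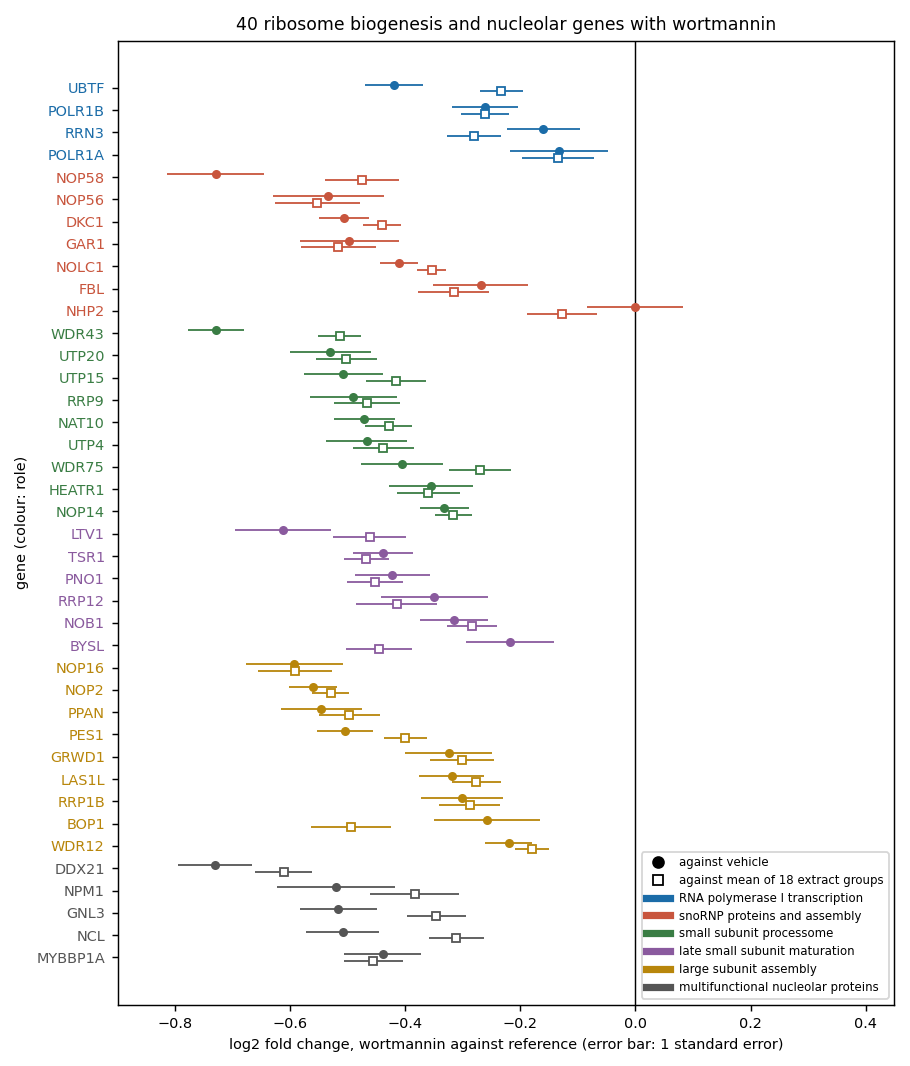
Log2 fold change of the 40 genes with wortmannin against the vehicle (filled circles) and against the mean of the 18 extract groups (open squares); error bars are 1 standard error from the edgeR fit, and colours mark the roles. All points but the vehicle value of NHP2 lie left of 0 by more than their error bar, and the value of NHP2 is at 0 against the vehicle.

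The RNA polymerase I genes had the smallest median of the 6 roles. It was -0.21 against the vehicle and -0.25 against the extracts, and 3 of the 4 genes were lower in each. UBTF (chr17:44205033-44221626), which binds the ribosomal DNA and keeps it open for the polymerase, stood at 143, 153 and 150 CPM in the vehicle libraries, 108, 115 and 110 CPM with wortmannin, and 116 to 157 CPM (median 130) in the extract libraries. The wortmannin libraries were thus below all others. The log2 fold change was -0.42 ± 0.05 (SE, adjusted p = 3.82e-09 in edgeR) against the vehicle and -0.23 ± 0.04 (adjusted p = 1.20e-06) against the extracts. POLR1B, the polymerase's second largest subunit, fell by 0.26 in both comparisons.

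POLR1A (chr2:86020216-86106155), the largest subunit and part of the catalytic centre, stood at 230, 244 and 246 CPM in the vehicle, 218, 221 and 218 CPM with wortmannin, and 190 to 299 CPM (median 240) with extracts. Its wortmannin libraries lay below the 3 vehicle libraries but within the range of the extracts. The difference was -0.13 ± 0.09 (SE, adjusted p = 0.247, edgeR) against the vehicle and -0.13 ± 0.06 (adjusted p = 0.0837) against the extracts, and neither passed. A fit of the 6 libraries alone called it against the vehicle (adjusted p = 0.0206). RRN3, the initiation factor that recruits the polymerase and is a known target of growth signalling, stood at 79.2, 78.8 and 74.8 CPM in the vehicle and 69.2, 69.8 and 69.4 CPM with wortmannin. Its change was -0.16 ± 0.06 (adjusted p = 0.0466, edgeR), and this call ended when any vehicle or wortmannin library other than vehicle replicate 3 was left out (adjusted p = 0.0624 to 0.116). Against the extracts (74.2 to 96.2 CPM) it was -0.28 ± 0.05 (adjusted p = 2.95e-06).

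Among snoRNP genes, 6 of 7 were lower in both comparisons, with medians of -0.50 and -0.44. NOLC1 (chr10:102152176-102163871), a chaperone that assists snoRNP assembly, had the smallest p of the 7 against the extracts. It stood at 223, 222 and 222 CPM in the vehicle, 169, 172 and 161 CPM with wortmannin and 201 to 242 CPM (median 212) with extracts. The wortmannin libraries were below all others, while the vehicle lay within the range of the extracts. It changed by -0.41 ± 0.03 (SE, adjusted p = 6.07e-14, edgeR) against the vehicle and -0.35 ± 0.02 (adjusted p = 2.27e-16) against the extracts.

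The box C/D particles, which methylate ribosomal RNA, were represented by NOP58, NOP56 and the methyltransferase FBL. They fell by 0.73, 0.53 and 0.27 on the log2 scale against the vehicle. NOP58 was at 171, 136 and 133 CPM in the vehicle, with the library of low GC slope as the highest, and at 86.4, 90.3 and 88.3 CPM with wortmannin. The call of FBL ended without vehicle replicate 2 (adjusted p = 0.0525, edgeR). The box H/ACA particles, which convert uridine to pseudouridine, were represented by the enzyme DKC1 and its partners GAR1 and NHP2. DKC1 and GAR1 fell by 0.51 and 0.50. NHP2 (chr5:178149460-178153967) did not pass, with 35.1, 41.1 and 41.0 CPM in the vehicle, 39.3, 40.3 and 37.3 CPM with wortmannin and 35.7 to 53.2 CPM (median 42.6) with extracts. All 3 ranges overlapped, and its log2 difference was -0.0013 ± 0.0835 (SE, adjusted p = 0.995, edgeR) against the vehicle and -0.13 ± 0.06 (adjusted p = 0.0872) against the extracts. Genes of the same particle thus gave a call for DKC1 and GAR1 and none for NHP2, and the difference between them was not tested.

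All 9 genes of the small subunit processome were lower in both comparisons, with medians of -0.47 and -0.43. WDR43 (chr2:28894643-28948222), which belongs to the complex that binds the precursor first, changed most. Its levels were 193, 187 and 172 CPM in the vehicle, 113, 110 and 110 CPM with wortmannin and 144 to 180 CPM (median 157) with extracts. The change was -0.73 ± 0.05 (SE, adjusted p = 1.74e-16, edgeR) against the vehicle and -0.51 ± 0.04 (adjusted p = 5.56e-16) against the extracts. Its 120 bases before the start held no exact copy of the 4 elements. They do hold a run close to the NRF1 element (gcgcctgcgc), which the printed UTP20 window holds as well, and inexact matches were not searched.

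WDR75 (chr2:189441433-189475565), of the same early complex, had the largest p of the 9 against the extracts and still passed. It stood at 72.0, 59.6 and 59.1 CPM in the vehicle, 47.4, 49.2 and 47.5 CPM with wortmannin and 53.0 to 66.4 CPM (median 57.3) with extracts. Its change was -0.41 ± 0.07 (SE, adjusted p = 1.39e-05, edgeR) and -0.27 ± 0.05 (adjusted p = 4.86e-05). UTP15, UTP4 and HEATR1, also of this complex, fell by 0.51, 0.47 and 0.35 on the log2 scale against the vehicle. The late processome factor UTP20 fell by 0.53, the U3 snoRNP protein RRP9 by 0.49, the RNA acetyltransferase NAT10 by 0.47 and NOP14 by 0.33. The members with an E-box near the start, UTP4, UTP20 and NAT10, stood at -0.47, -0.53 and -0.47, where the median of the 40 genes was -0.44. Of the 120 bases before the start, 120 lay in an annotated exon in UTP4, 27 in NAT10 and 0 in UTP20. Whether the E-box has a part in the fall was not tested.

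Late maturation of the small subunit was represented by 6 genes, all lower in both comparisons (medians -0.39 and -0.45). TSR1 (chr17:2322503-2337507), a protein that blocks premature use of the new subunit, stood at 116, 115 and 110 CPM in the vehicle, 84.8, 84.0 and 82.8 CPM with wortmannin and 103 to 131 CPM (median 116) with extracts. The wortmannin libraries were the 3 lowest of 60. Its change was -0.44 ± 0.05 (SE, adjusted p = 3.22e-09, edgeR) and -0.47 ± 0.04 (adjusted p = 7.33e-14). RRP12 (chr10:97356358-97426076), which serves the export of both subunits, stood at 67.5, 76.5 and 76.5 CPM in the vehicle, 58.0, 58.1 and 56.9 CPM with wortmannin and 61.8 to 98.1 CPM (median 77.0) with extracts. It changed by -0.35 ± 0.09 (adjusted p = 0.00287, edgeR) and -0.42 ± 0.07 (adjusted p = 3.67e-06).

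LTV1, an adaptor released before the subunit matures, fell by 0.61 against the vehicle. PNO1 fell by 0.42, and NOB1, the endonuclease that PNO1 keeps in place until the last cut, fell by 0.32. BYSL (chr6:41921188-41933046), an early-binding factor of the small subunit, was at 32.3, 37.3 and 40.5 CPM in the vehicle and at 31.4, 31.6 and 31.6 CPM with wortmannin, so the highest wortmannin library came close to the lowest vehicle library. The change of -0.22 ± 0.08 (SE, adjusted p = 0.0242, edgeR) ended as a call without vehicle replicate 2 or 3 or without wortmannin replicate 1 or 3 (adjusted p = 0.0545 to 0.196). With extracts BYSL was at 37.5 to 50.1 CPM, above each wortmannin library, and the difference was -0.45 ± 0.06 (adjusted p = 1.16e-08).

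The 9 genes of large subunit assembly were all lower (medians -0.32 and -0.40). NOP2 (chr12:6556863-6568691), a methyltransferase of the large ribosomal RNA, had the smallest p of all 40 genes against the extracts. It stood at 92.7, 93.8 and 96.2 CPM in the vehicle, 61.8, 66.5 and 63.4 CPM with wortmannin and 82.6 to 107 CPM (median 91.8) with extracts. The change was -0.56 ± 0.04 (SE, adjusted p = 6.23e-15, edgeR) and -0.53 ± 0.03 (adjusted p = 1.04e-18). GRWD1 (chr19:48445773-48457022), a histone-binding protein of the preribosome, had the largest p of the 9 there. Its levels were 82.3, 91.5 and 88.3 CPM in the vehicle and 73.7, 68.4 and 67.2 CPM with wortmannin, and 1 of the 54 extract libraries (lowest 72.5 CPM) lay below the highest wortmannin library. The change was -0.32 ± 0.08 (adjusted p = 6.11e-04, edgeR) and -0.30 ± 0.06 (adjusted p = 1.78e-05).

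PES1, BOP1 and WDR12 form the PeBoW complex, which is needed to process the large subunit's RNA, and the 3 differed in size. PES1 fell by 0.50 and WDR12 by 0.22 against the vehicle. BOP1 was at 65.9, 78.8 and 73.3 CPM in the vehicle and 62.8, 60.9 and 58.5 CPM with wortmannin. That change of -0.26 ± 0.09 (SE, adjusted p = 0.0263, edgeR) ended as a call without vehicle replicate 2 or 3 or without wortmannin replicate 3 (adjusted p = 0.0554 to 0.144). Against the extracts (69.7 to 100.5 CPM) BOP1 was lower by 0.49 (adjusted p = 8.29e-08). The other large subunit factors NOP16, PPAN, LAS1L and RRP1B fell by 0.59, 0.55, 0.32 and 0.30 against the vehicle.

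The 5 multifunctional nucleolar proteins were all lower, with medians of -0.52 and -0.38. DDX21 (chr10:68956128-68985073), an RNA helicase that links polymerase I with rRNA processing, stood at 339, 311 and 295 CPM in the vehicle, 190, 197 and 182 CPM with wortmannin and 258 to 349 CPM (median 286) with extracts. The 3 wortmannin libraries were far below the lowest other library. Its change was -0.73 ± 0.06 (SE, adjusted p = 7.41e-13, edgeR) and -0.61 ± 0.05 (adjusted p = 1.72e-14), a mean level 39.7% below the vehicle and 34.6% below the extracts.

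NPM1 (chr5:171387116-171411137), nucleophosmin, is a histone chaperone and one of the most abundant nucleolar proteins. It stood at 1229, 1117 and 1074 CPM in the vehicle, 794, 797 and 793 CPM with wortmannin and 831 to 1345 CPM (median 1031) with extracts. Its change was -0.52 ± 0.10 (SE, adjusted p = 7.36e-05, edgeR) and -0.38 ± 0.08 (adjusted p = 6.46e-05). NCL, nucleolin, the other abundant member, was at 1995, 1966 and 1883 CPM in the vehicle and 1368, 1415 and 1326 CPM with wortmannin, a fall of 0.51. With extracts it ran from 1380 to 2135 CPM, and 1 extract library lay below the highest wortmannin library. GNL3, nucleostemin, fell by 0.52 and MYBBP1A by 0.44 against the vehicle.

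Some of these genes share their place with others or have near-identical copies, and the strand setting of the counting is not given in the sources used here. RRN3 and NPM1 have pseudogene copies. PPAN shares its exons with a readthrough to P2RY11, and UTP4 and NOP2 overlap SNTB2 and AC006064.6 on the same strand. RRN3, NOP14, HEATR1, TSR1, WDR12 and GNL3 overlap genes on the opposite strand, such as PDXDC1 for RRN3 and PBRM1 for GNL3. Values of these 10 genes are uncertain to that extent. The other 30 genes are not free of overlap. Among them NHP2 shares 1106 bases with RMND5B on the opposite strand. On the opposite strand, too, NOP16 shares 5038 bases with ARL10 and 229 with HIGD2A, and BOP1 shares 1922 with SCX. GRWD1 shares 1514 bases with KCNJ14 on the same strand, and further members also overlap annotated genes. Of these 30 genes, 28 were lower in each comparison with wortmannin, a count that does not stand for genes without overlap.

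**Figure D2:**
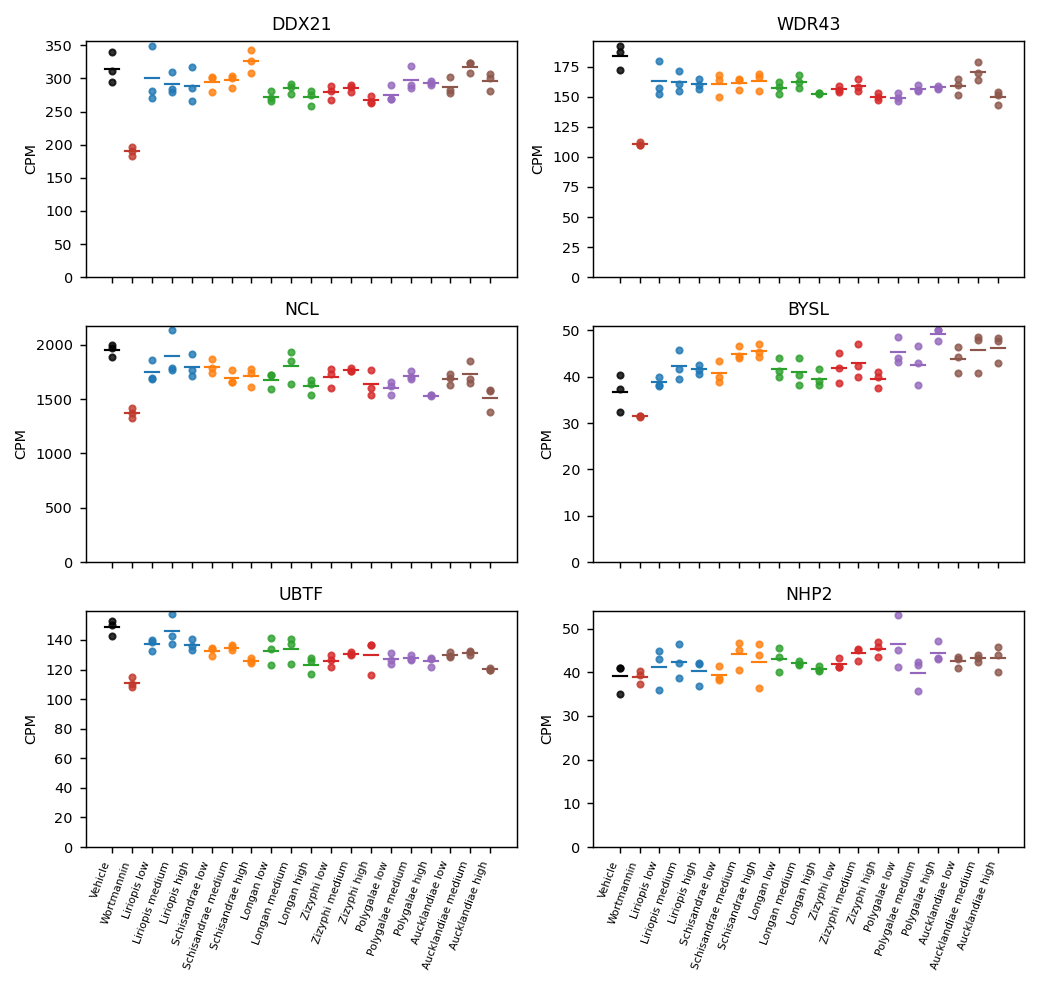
CPM of DDX21, WDR43, NCL, BYSL, UBTF and NHP2 in each of the 60 libraries (points) with the group mean of 3 libraries (bars); each vertical axis starts at 0. Wortmannin (red) is set apart below all groups in DDX21 and WDR43, lies at the lower edge in NCL, BYSL and UBTF, and lies among the others in NHP2.

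Other genes of the same pathway, in lists not overlapping the 40, were lower in smaller shares. Of 45 further genes of the small subunit processome and the small subunit, 30 were lower and 1 higher with wortmannin against the vehicle (median -0.31). Of 44 further genes of large subunit assembly, 34 were lower and 0 higher (median -0.32). The corresponding share of all tested genes called lower was 16.2%. Examples are DDX10, an RNA helicase, at 34.1 ± 2.7 CPM in the vehicle and 22.5 ± 1.2 CPM with wortmannin (SD, n = 3 each), and RRS1, which brings the 5S particle into the large subunit, at 51.1 ± 3.8 and 35.4 ± 0.6 CPM. Of 13 further genes for ribosomal DNA transcription, 7 were lower and 1 higher. Among these, POLR1G, a subunit of polymerase I, went from 46.4 ± 3.8 to 28.6 ± 2.0 CPM, and TCOF1, treacle, which aids polymerase I, from 210.3 ± 9.9 to 142.4 ± 4.0 CPM.

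Of 9 factors that assemble snoRNPs, 6 were lower and 0 higher (median -0.25). RUVBL1, an ATPase of that machinery, fell by 0.34 and NUFIP1 by 0.49. Of 17 genes of the RNA exosome and other nucleases that trim ribosomal RNA, 12 were lower and 0 higher (median -0.24). EXOSC3 fell by 0.40 and the exonuclease XRN2 by 0.24. Of 8 tested snoRNA host genes, whose introns carry the guide RNAs, 2 were lower, SNHG1 and SNHG12.

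The transcripts of the ribosome's own proteins gave few calls. Of 79 cytosolic ribosomal protein genes, 2 were lower and 0 higher with wortmannin against the vehicle, with a median of -0.07, and the difference from the biogenesis genes was not tested. Levels of this list varied within groups: the mean relative level of this list, the average log2 CPM of its genes relative to all 60 libraries, ran from -0.55 to 0.12 within the medium dose of Polygalae alone. The same measure for the 40 biogenesis genes had SDs of 0 to 0.035 within the groups. It was 0.037, 0.063 and 0.034 in the vehicle and -0.365, -0.354 and -0.411 with wortmannin. In the 18 extract groups its means ran from -0.046 with high-dose Longan to 0.102 with medium-dose Aucklandiae.

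**Figure D3:**
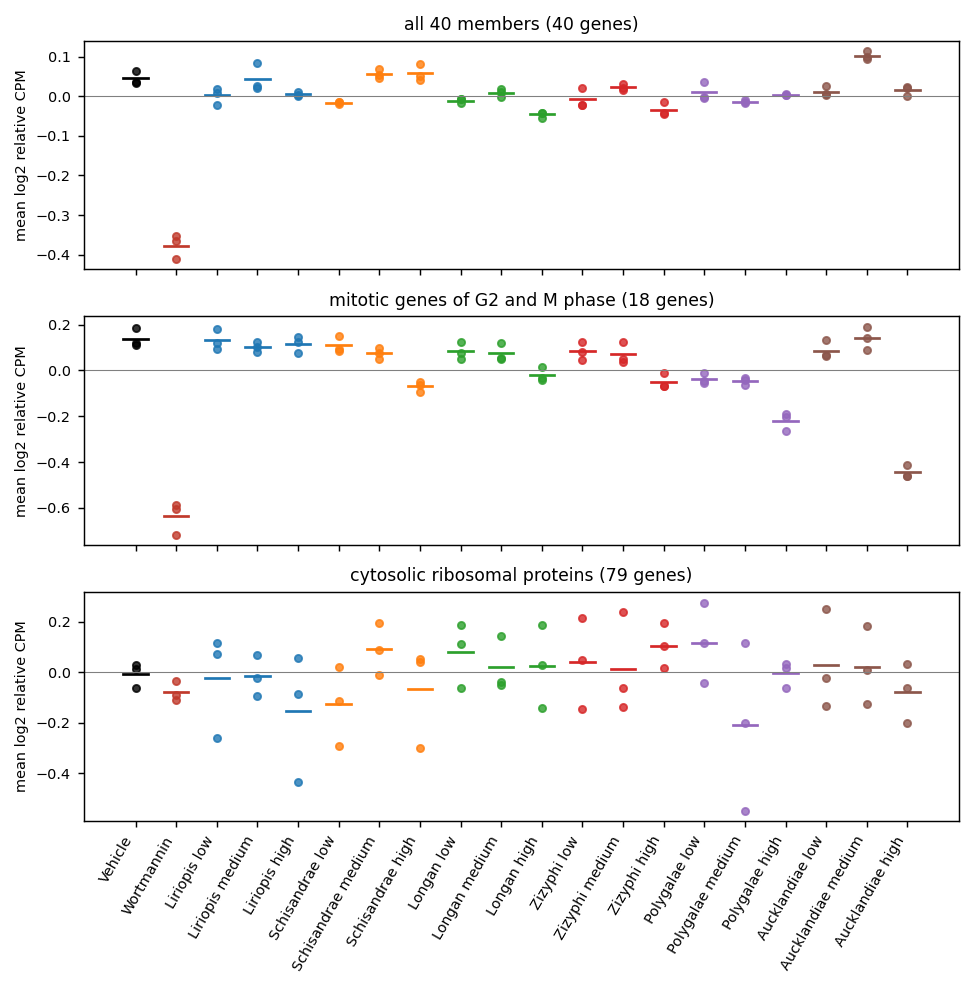
Mean log2 CPM of 3 gene lists relative to the mean of all 60 libraries (vertical axis), per library (points) and per group (bars, mean of 3). The 40 genes sit near 0 in the vehicle and all extract groups and between -0.35 and -0.41 with wortmannin, the mitotic genes are low with wortmannin and also with high-dose Aucklandiae and Polygalae, and the ribosomal protein genes vary within groups.

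MYC, whose product is known to activate many of these genes, was itself lower with wortmannin, at 208, 214 and 207 CPM in the vehicle, 165, 168 and 159 CPM with wortmannin and 167 to 246 CPM (median 210) with extracts. It changed by -0.35 ± 0.07 (SE, adjusted p = 1.41e-04, edgeR) against the vehicle and -0.35 ± 0.05 (adjusted p = 7.64e-07) against the extracts. Its partner MAX fell by 0.27 against the vehicle and did not pass against the extracts (adjusted p = 0.0891). MXD4, a repressor that competes with MYC for MAX, rose from 60.7 ± 5.7 to 93.5 ± 6.4 CPM (SD, n = 3 each), above all extract libraries (52.95 to 74.99 CPM). Of the 10 genes of the MYC network, 3 were lower and 1 higher against the vehicle.

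Genes that insulin holds down through PI3-kinase served as a check of the wortmannin label, and 4 of 5 were higher. High doses of Schisandrae, Zizyphi and Polygalae also called 3 of the 5 higher, and the sum of the 5 was 540.2 CPM with high-dose Schisandrae against 535.6 CPM with wortmannin, so the list as a whole does not mark wortmannin alone. G6PC1, which releases glucose, stood at 1.16, 1.51 and 2.30 CPM in the vehicle and 17.0, 13.6 and 17.9 CPM with wortmannin, above all extract libraries (1.251 to 4.109 CPM). IGFBP1 went from 23.9 ± 2.9 to 102.4 ± 14.3 CPM (SD, n = 3 each). Markers of proliferation moved with the 40 genes: all 18 mitotic genes were lower with wortmannin, with a median of -0.79 against the vehicle, and the mitotic kinase PLK1 stood at 337, 335 and 338 CPM in the vehicle and 160, 157 and 143 CPM with wortmannin. The part of cell division in the lower biogenesis genes was not tested. Of 10 hepatocyte markers, 6 were higher and 0 lower. Of the 10 markers of other cell types, 5 had enough counts for a test, and their sum ran from 937 to 980 CPM in the vehicle and from 1430 to 1544 CPM with wortmannin, nearly all of it LYZ, while PTPRC and KRT5 were at 0 and their part in the result was not tested.

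**Figure D4:**
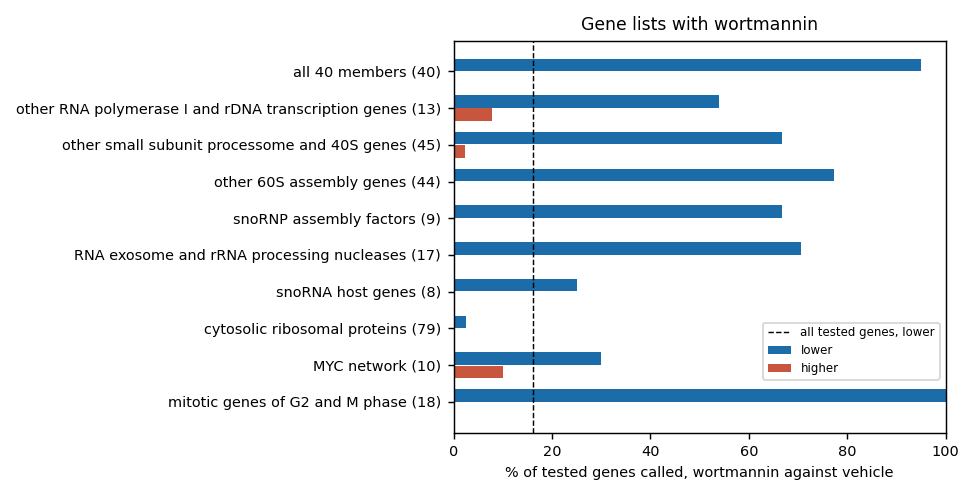
Share of the tested genes of each list called lower (blue) or higher (orange) with wortmannin against the vehicle, in percent, with the number tested in brackets; the dashed line marks the 16.2% of all tested genes called lower. The 40 genes and the mitotic genes are near or at 100%, the further lists of assembly factors and of polymerase I, snoRNP and exosome genes lie below them but above the line, and the ribosomal proteins lie under it.

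Against each extract group taken singly, an analysis chosen after the data were seen, wortmannin was lower for 35 to 39 of the 40 genes and higher for 0, with medians of -0.35 to -0.49. The share of all tested genes called lower ran from 12.5% to 18.4%. The smallest count was against high-dose Polygalae (35). The mitotic genes were called lower for 17 or 18 of 18 in these comparisons, except against high-dose Aucklandiae, where 9 of 18 were lower (median -0.18) while 36 of the 40 biogenesis genes were (median -0.40). In that extract group the 40 genes stood near their usual level and the mitotic genes did not: the mean relative level was 0.022, 0.001 and 0.024 for the 40 genes and -0.412, -0.461 and -0.461 for the mitotic genes.

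The second question was whether any herb extract moved these genes. The counts ran from 0 to 13 of the 40 genes, with calls in both directions for 3 of the 6 extracts. The high dose of Liriopis called 0 of the 40 genes against the vehicle, where 0.0484% of all tested genes were called. In edgeR 13 genes had an unadjusted p below 0.05. The share of all tested genes below that p is not given here, so this count is no result about the 40 genes. DESeq2 called 1, WDR43, lower, where it called 46 of 7871 tested genes. The high dose of Longan called 4 lower and 0 higher (of all tested genes, 0.842% lower and 0.92% higher, 1.76% in all). Zizyphi called 5 lower and 0 higher (1.86% and 2.55%, 4.42% in all), and Schisandrae 5 lower and 4 higher (7.25% and 8.4%, 15.7% in all). Aucklandiae called 7 lower and 3 higher (12.5% and 13.6%, 26.1% in all) and Polygalae 10 lower and 3 higher (9.94% and 10.2%, 20.1% in all). The count of Aucklandiae (10 of 40) was near the share of all tested genes, and the counts of Longan, Zizyphi, Schisandrae and Polygalae were above theirs by a few genes each. These 6 comparisons share the 3 vehicle libraries.

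These counts changed with single libraries. Without vehicle replicate 1, the library of low GC slope, the counts of called genes were 1 for Longan, 2 for Zizyphi, 3 for Schisandrae, 8 for Aucklandiae and 9 for Polygalae. The counts over all tested genes fell too, from 291 to 39, 730 to 191, 2585 to 1871, 4306 to 3163 and 3326 to 2187 in the same order. Without vehicle replicate 2 the counts among the 40 genes were 2 for Longan, 6 for Zizyphi, 5 for Schisandrae, 10 for Aucklandiae and 9 for Polygalae. Over all tested genes they were 147, 612, 2127, 3787 and 2798 in the same order. Extract libraries mattered as well. Schisandrae went to 4 without its high-dose replicate 1 (1879 of all tested genes) and to 5 without replicate 3 (2057). Longan went to 2 without replicate 2 or 3 (128 and 103), and Zizyphi to 2 without replicate 2 or 3 (453 and 341). A fit of the 6 libraries alone called 0 genes for Longan and 1 for Zizyphi (21 and 233 of all tested genes).

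UBTF, WDR43 and NCL recurred as lower in 5 of the 6 high doses, all but Liriopis. These calls share the same vehicle libraries, and for all 3 genes the vehicle had the highest mean of the 20 groups. How many of all tested genes recurred in this way was not counted. UBTF stood at 126, 128 and 117 CPM with high-dose Longan, 137, 116 and 137 CPM with Zizyphi, 126, 128 and 125 CPM with Schisandrae, 120, 120 and 121 CPM with Aucklandiae and 128, 127 and 122 CPM with Polygalae, all below the lowest vehicle library (143 CPM). Its log2 changes ran from -0.31 (Aucklandiae, adjusted p = 4.54e-06, edgeR) to -0.20 (Zizyphi, adjusted p = 0.0153). The call for Zizyphi ended without its replicate 2 (adjusted p = 0.155). WDR43 ran from -0.30 (Aucklandiae) to -0.17 (Schisandrae), and its calls for Schisandrae and Longan ended without vehicle replicate 1 (adjusted p = 0.163 and 0.0520, edgeR). The call for Schisandrae also ended without vehicle replicate 2 or its own replicate 3 (adjusted p = 0.0508 and 0.114, edgeR).

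NCL changed by -0.37 with Aucklandiae, -0.35 with Polygalae, -0.27 with Longan, -0.25 with Zizyphi and -0.19 with Schisandrae. Without vehicle replicate 1 its calls for the last 3 ended (adjusted p = 0.11, 0.102 and 0.150, edgeR). They also ended without vehicle replicate 2 (Longan, Schisandrae), without the extract's replicate 3 (all 3), without replicate 2 (Longan, Zizyphi) or without replicate 1 (Schisandrae), with adjusted p of 0.0505 to 0.183 in edgeR. With Polygalae it stood at 1536, 1534 and 1526 CPM and with Aucklandiae at 1584, 1380 and 1574 CPM, below all vehicle libraries (1883 CPM and above). GNL3 fell with the same 2 extracts, by 0.34 and 0.28. NOP58 fell with Schisandrae, Polygalae and Aucklandiae, by 0.26, 0.34 and 0.40, and the first 2 calls ended without vehicle replicate 1 (adjusted p = 0.417 and 0.0850, edgeR). That for Schisandrae also ended without its replicate 1 or 3 (adjusted p = 0.0681 and 0.0956, edgeR). LTV1 was called lower with the same 3 extracts, and none of these calls held without that vehicle library (adjusted p = 0.0696 to 0.296, edgeR). Those for Schisandrae and Polygalae also ended without vehicle replicate 2 or any 1 of their own libraries. Single calls were made for DDX21 and WDR12 (lower with Zizyphi), NAT10, LAS1L and NPM1 (lower with Polygalae) and DKC1 (lower with Aucklandiae), and PES1 was lower with Longan and Polygalae. Of these, the calls of LAS1L and of PES1 with Polygalae held whichever library was left out but ended with no filter on low counts (adjusted p = 0.0662 and 0.0544, edgeR), and the others ended without at least 1 library.

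A few genes went the other way. BYSL stood at 47.0, 44.2 and 45.4 CPM with high-dose Schisandrae, 50.1, 47.6 and 50.02 CPM with Polygalae and 42.9, 48.3 and 47.6 CPM with Aucklandiae, each library above the 3 vehicle libraries (at most 40.5 CPM). It rose by 0.31 ± 0.08 (SE, adjusted p = 0.00223, edgeR), 0.43 ± 0.07 (adjusted p = 3.02e-05) and 0.34 ± 0.08 (adjusted p = 5.39e-04). The call for Schisandrae ended without the 4 libraries of lowest GC slope (adjusted p = 0.0594, edgeR). BOP1 rose with Schisandrae (100.0, 96.0 and 96.9 CPM) and Aucklandiae (97.1, 99.4 and 100.5 CPM) by 0.43 and 0.45, and RRN3 rose with Polygalae (96.2, 93.1 and 91.5 CPM) and Aucklandiae (94.2, 86.5 and 94.2 CPM) by 0.27 and 0.24. RRP12 and NOLC1 were called higher with Schisandrae, and both calls ended without vehicle replicate 1 (adjusted p = 0.0817 and 0.0513, edgeR) or Schisandrae replicate 1 (0.0907 and 0.146). That of NOLC1 also ended without vehicle replicate 2 or 3 or Schisandrae replicate 2. With Polygalae WDR12 was called higher, a call that ended without vehicle replicate 2 or 3 or Polygalae replicate 1 or 2 (adjusted p = 0.0925 to 0.248, edgeR).

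**Figure D5:**
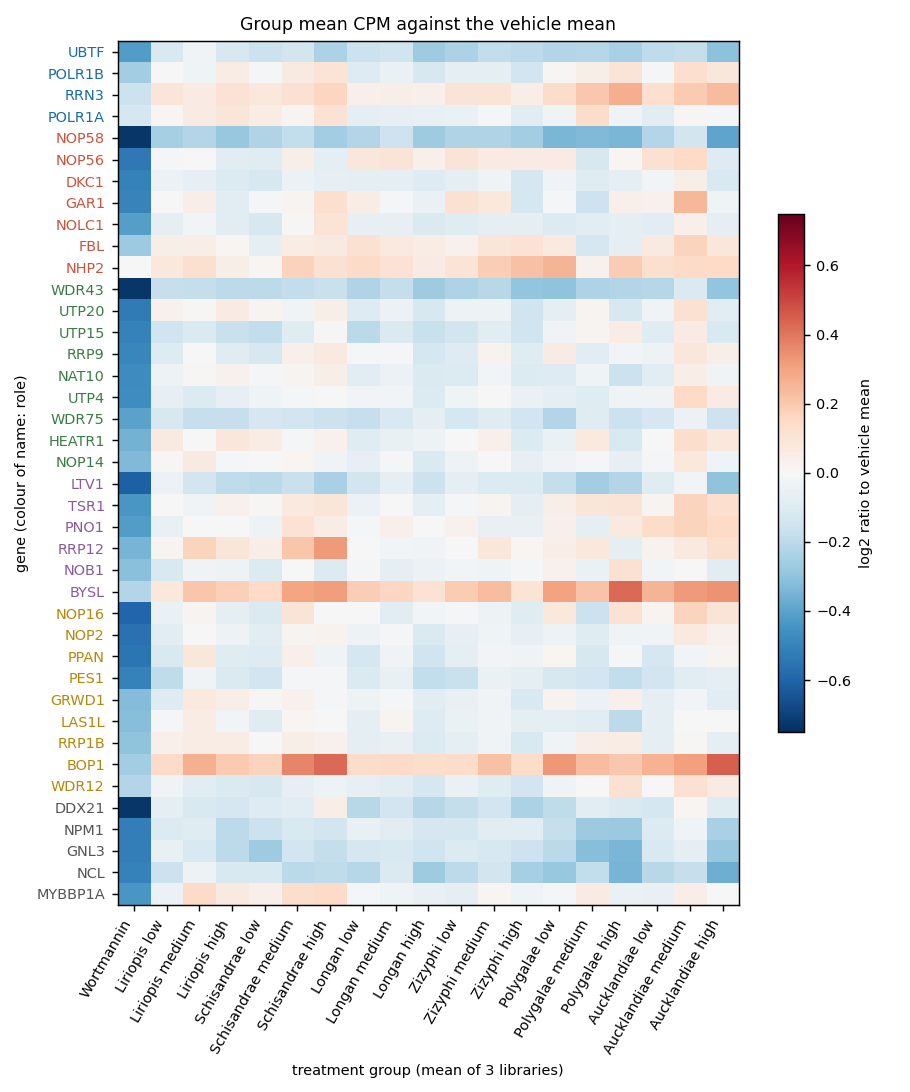
Log2 ratio of each group's mean CPM to the vehicle mean (colour, blue lower and red higher) for the 40 genes (rows, ordered by role) in wortmannin and the 18 extract groups (columns). The wortmannin column is blue throughout except for NHP2, while the rows of UBTF, NOP58, WDR43 and NCL are blue and those of BYSL and BOP1 red in all extract columns.

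Some genes stood on 1 side of the vehicle with all extracts and doses. All 18 extract means lay below the vehicle mean for 9 of the 40 genes, UBTF, NOP58, WDR43, WDR75, LTV1, PES1, NCL, NPM1 and GNL3, where this held for 10.4% of all tested genes. In these 9 the vehicle had the highest mean of the 20 groups (8.86% of all tested genes). All 18 lay above it for RRN3, NHP2, BYSL and BOP1 (10.4% of all tested genes). For UBTF 52 of 54 extract libraries were below all vehicle libraries, and for BOP1 44 of 54 were above them. The mean of the 6 low doses called 6 genes lower and 1 higher against the vehicle (of all tested genes, 3.34% lower and 3.57% higher, 6.91% in all). The 6 were UBTF (-0.18), NOP58 (-0.25), NOLC1 (-0.09), WDR43 (-0.22), PES1 (-0.14) and NCL (-0.20), and BYSL was higher (0.20). Without vehicle replicate 1 the count went from 7 to 3 genes and that of all tested genes from 1141 to 143. Without vehicle replicate 2 these counts were 4 and 656. At these doses a treatment and a difference of the vehicle's code set cannot be told apart.

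High against low dose of the same extract is a comparison within a code set that uses no vehicle library. In these comparisons 2 calls were made among the 40 genes over 6 extracts. NOLC1 rose with high-dose Schisandrae, with 242, 238 and 235 CPM at the high, 228, 224 and 220 CPM at the medium and 211, 201 and 201 CPM at the low dose. The 3 doses did not overlap, and the high dose differed from the low by 0.22 ± 0.03 (SE, adjusted p = 1.37e-06, edgeR), where 9.99% of all tested genes were called. Same-numbered libraries deviated together in this comparison among genes of at least 10 CPM but not over all tested genes. With the replicate number as a block within the code set, 4 of the 40 genes were called, all higher: NOLC1, UTP15, RRP12 and BOP1. With that block 1797 of 16438 tested genes were called, a share near that of the 40 genes.

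WDR12 was called higher with high-dose Polygalae (3.93% of all tested genes called), at 88.6, 90.7 and 86.1 CPM against 79.0, 81.7 and 80.3 CPM at the low dose, a difference of 0.14 ± 0.04 (SE, adjusted p = 0.0331, edgeR). That call ended without any of low-dose replicates 1, 2 or 3 or high-dose replicates 1 or 2 (adjusted p = 0.0614 to 0.188). High-dose Aucklandiae called 0 of the 40 genes against its low dose (14.9% of all tested genes called), with a median of 0.02, although all 18 mitotic genes were lower in that comparison (median -0.50). By unadjusted p below 0.05 there were 10 genes in edgeR, with the share of all tested genes not given here. DESeq2 called 0, where it called 2390 of 14595 tested genes. Liriopis, Longan and Zizyphi each called 0 genes by edgeR and by DESeq2 between doses (0.0%, 0.00605% and 0.351% of all tested genes called by edgeR). At an unadjusted p below 0.05 there were 2, 1 and 2 genes, again without the share of all tested genes.

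The medium doses were described by level only. Medium-dose Aucklandiae had the highest of the 18 extract means for 22 of the 40 genes, where this held for 6.63% of all tested genes, and its mean relative level was 0.114, 0.094 and 0.100 in the 3 libraries. DDX21, for example, stood there at 308, 323 and 323 CPM and NOP56 at 497, 391.7 and 422 CPM. DDX21 lay within the vehicle range (295 to 339 CPM), and NOP56 lay above it (390 to 399 CPM) in replicates 1 and 3. Replicate 1 of this group differed most from the other libraries of the group (chi-square per degree of freedom 78.8 and 52.6, against 6.72 between replicates 2 and 3) and had the highest mitochondrial share of all 60 libraries (16.57%), and replicate 3 was among the 4 libraries of lowest GC slope. Their part in these levels was not tested. The summed level of the 40 genes was, among the extract groups, lowest with high-dose Polygalae, at a mean of 6520 CPM, still above each wortmannin library. That sum gives the most weight to the abundant NCL and NPM1. By the median log2 ratio to the vehicle mean, high-dose Longan was the lowest extract group (-0.103, against -0.041 with high-dose Polygalae).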

How the data were processed

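The authors deposited expected counts (estimated reads per gene, not always whole) for 60 libraries. Tools named in the submitters' processing notes are STAR 2.7.3a, RSEM 1.3.3, Trim Galore 0.6.5 and FastQC 0.11.9, with the builds hg38 and GRCh38. For the annotation release and the strand setting of counting, the sources used here give nothing. Gene coordinates are from GENCODE release 29.

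Counts were rounded. edgeR's filterByExpr kept 16517 genes, the rest holding 0.0532% of counts, and libraries were TMM-scaled (0.92 to 1.08). One quasi-likelihood model with 20 group terms (edgeR 4.0.16 in R 4.3.3) covered the 60 libraries. Tests were 2-sided, with p-values adjusted by Benjamini-Hochberg across the 16517 genes and a threshold of 0.05. Total counts of 20.21 M to 36.41 M per library limit the precision of low genes. Members, lists and tests were chosen with earlier results of these data known. Genes given in every library are, per role, those with the smallest and largest p against the extracts, plus members called against the prevailing direction. NCL, NOP58 and further members are named from the full list of 40, and genes of other lists by smallest p.

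Alternatives were RLE factors, no or a stricter count filter (1 CPM in 30 libraries), DESeq2 1.42.0, replicate blocks, GC slope as a covariate, fits of 6 libraries, and leaving out libraries. Over the 9243 genes with a mean of at least 10 CPM, same-numbered libraries deviated together (all r above 0.1) in high- against low-dose Schisandrae (0.43, 0.17 and 0.38) and Zizyphi (0.37, 0.58 and 0.21) only. Over all tested genes none did (Schisandrae 0.062, 0.067 and 0.079, Zizyphi 0.121, 0.254 and 0.088), so the pairing is uncertain. The labels give the numbers and do not say what they share. Values of single ribosomal protein genes are not reported here.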

Additional observations from a re-analysis of the deposited data

How the results depend on the processing

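With wortmannin all 38 calls of each comparison kept their direction, and the count against the vehicle was 37 to 39 under other scaling, filters, covariates, tests and library sets and 34 (without vehicle replicate 2) to 37 when 1 library was left out. RRN3, FBL, BYSL and BOP1 were the genes whose calls ended there. Against the extracts it was 38 to 40, also when 1 library was left out. NHP2, not called, changed sign against the vehicle: its log2 difference was 0.014 with a stricter filter, 0.034 and 0.031 without vehicle replicate 2 or 3 and 0.026 without wortmannin replicate 3, where it was -0.086 without vehicle replicate 1. RRN3 was not called with no filter, a stricter filter, a GC covariate or without the 4 libraries of lowest GC slope (adjusted p = 0.0839, 0.0680, 0.229 and 0.0914, edgeR).

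The extract counts moved more, and the cause was not tested. Leaving out 1 library gave 3 to 10 genes for the mean of the low doses, 0 for Liriopis, 3 to 9 for Schisandrae, 1 to 5 for Longan, 2 to 6 for Zizyphi, 9 to 13 for Polygalae and 8 to 11 for Aucklandiae against the vehicle. Over all genes, in that order, the first 4 called 143 to 1426, 0 to 4, 1871 to 2279 and 39 to 232. For Zizyphi, Polygalae and Aucklandiae the all-gene counts were 191 to 687, 2187 to 2974 and 3163 to 3937. Without the 4 libraries of lowest GC slope the low doses gave 3, Schisandrae 2 and Zizyphi 2 (148, 2026 and 231 of all genes). Liriopis gave 1 with no filter, with a GC covariate and with DESeq2 (515, 81 and 46 of all genes, against 8). Longan gave 0 in a fit of its 6 libraries and 8 with DESeq2 (21 and 477 of all genes, against 291). Zizyphi gave 3 with a GC covariate and 1 in a fit of its 6 libraries (829 and 233 of all genes, against 730).

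Between doses of Schisandrae 1 gene was called (1650 of all genes). RLE factors gave 2, no filter 3 and a stricter filter 3 (1645, 1411 and 1688 of all genes). A GC covariate gave 5, the set without 4 libraries 3, the 6 libraries alone 3 and DESeq2 3 (2097, 1445, 1427 and 1557). Leaving out 1 library gave 1 to 3 (1233 to 1335). A replicate block over all libraries gave 2 and within the code set 4 (1682 and 1797 of all genes). Polygalae gave 0 with no filter and with its 6 libraries alone (660 and 487 of all genes, against 649). With 1 library left out it gave 0 to 1 (373 to 608 of all genes). In Aucklandiae, where 0 genes were called (2462 of all genes), the replicate numbers do not pair the libraries. Aucklandiae gave 2 with no filter and 1 with a GC covariate (2157 and 2889 of all genes). A replicate block over all libraries gave 1 there and a block within the code set 3 (2493 and 2704 of all genes). The replicate block moved no other count of the 40 genes by over 1.5 times. Depth limits the lowest genes, such as GAR1.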
